A study of Mus musculus with 6 samples.

Results

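The 56 genes described here encode the machinery of late cell cycle: the kinase and cyclins that start mitosis, the spindle with its motors and checkpoint, the kinetochores, and proteins that shape mitotic chromosomes. They were chosen by name as a module of G2/M and mitosis genes, and all 56 were found among the 18368 genes of the deposited count table. Haematopoietic stem cells (HSCs) had been sorted from the bone marrow of adult mice, some 2000 cells for each RNA library, with 3 libraries from animals labelled Ramp1 Mut (genotype Ramp-/-, called Mut here) and 3 from animals labelled Ramp1 WT (genotype Ramp1+/+, called WT here). Ramp1 is the accessory subunit of the receptor for CGRP, a neuropeptide of pain-sensing nerves. Neither treatment nor strain, nor the design of the allele, is given in the sources used here, and no label ties a library to 1 animal, so p-values measure only the spread between these libraries, which may be technical.

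Most HSCs rest outside the cell cycle, and transcripts of mitotic genes in a sorted HSC sample come from the minority of cells in or near division. In a cycling cell these genes are switched on late, in G2, when the MuvB complex with B-Myb and FoxM1 acts at their promoters, and they are held off in resting cells by the related DREAM repressor complex. Cyclin B with Cdk1 then drives entry into mitosis, the spindle checkpoint delays chromosome separation until every kinetochore is attached, and the anaphase-promoting complex ends mitosis by marking cyclin B and other proteins for destruction. A bulk library cannot tell fewer dividing cells from less mitotic RNA per dividing cell.

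Reads counted in genes numbered 22796771 to 26734561 a library. Ramp1 itself checked the labels, at 3.53, 2.65 and 1.35 FPKM in Mut HSCs, against 91.4, 88.3 and 91.0 FPKM in WT HSCs (replicates 1, 2 and 3 in that order here and throughout; FPKM is the read level scaled to gene length and library size, so that it can be compared between genes; log2 fold change -5.17, SE 0.31, edgeR adjusted p = 0.00146). The 12 HSC markers examined all exceeded 1 FPKM on average, with Kit at 460.5, 385 and 260.0 FPKM in Mut HSCs, against 461, 323 and 377 FPKM in WT HSCs. Y-linked reads were present in replicate 1 of both groups, 6137 in Mut and 6527 in WT, against at most 2 in the other libraries. Summed over 12 neutrophil markers, the level was 674, 1426 and 1709 FPKM in Mut HSCs and 526, 753 and 1377 FPKM in WT HSCs. This level was thus high in Mut replicates 2 and 3 and in WT replicate 3, and Ly6g was at 0 in replicate 1 of both groups. Lyz2, the largest part of each sum, had 493, 614 and 563 FPKM in Mut HSCs, against 495, 473 and 551 FPKM in WT HSCs. S100a8 had 75.9, 355 and 445 FPKM in Mut HSCs, against 11.8, 99.7 and 288 FPKM in WT HSCs. Mut replicate 3 was the highest library for 10 of the 12 markers (background 16.9%). Summed over 9 granulocyte-monocyte progenitor markers, the level was 104, 135 and 88.4 FPKM in Mut HSCs and 146, 202 and 89.9 FPKM in WT HSCs. Of these, the primary granule gene Elane had 0, 30.5 and 0.350 FPKM in Mut HSCs, against 0.815, 26.5 and 0.140 FPKM in WT HSCs. Mpo, Ctsg and Ms4a3 were also highest in replicate 2 of both groups. Prtn3 was not, at 71.6, 34.9 and 44.0 FPKM in Mut HSCs, against 58.9, 70.2 and 27.5 FPKM in WT HSCs. Summed erythroid markers were at 1273, 1135 and 1081 FPKM in Mut HSCs and 1184, 1241 and 1244 FPKM in WT HSCs. Megakaryocyte markers were at 226, 159 and 191 FPKM in Mut HSCs and 219, 237 and 174 FPKM in WT HSCs. For multipotent progenitor markers the sums were 230, 169 and 170 FPKM in Mut HSCs and 217, 186 and 197 FPKM in WT HSCs. Of 12 B and T cell markers, 3 exceeded 1 FPKM on average, and Cd8a was at 0 in every library. The summed level of these 12 was 38.5 to 52.4 FPKM in Mut HSCs and 41.3 to 45.0 FPKM in WT HSCs. The part of these cell type markers in the results below was not tested.

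None of the 56 genes passed the test of Mut against WT HSCs. At an adjusted p under 0.05 (edgeR quasi-likelihood test with Benjamini-Hochberg adjustment over 14443 genes) 0 of 56 were called, where the background was 3 of 14443 genes, or 0.0208% (0.0138% for lower genes alone), and the smallest adjusted p among the 56 was 0.999. DESeq2, with a background of 0.284%, and limma-voom also called 0 of 56, and each gave 2 an unadjusted p under 0.05. At an unadjusted p under 0.05, 1 gene was lower, the checkpoint kinase gene Ttk (background 1.7%), and 1 was higher, the cytoskeletal linker gene Gas2l3 (background 2.28%). These were also the only 2 of the 56 whose groups did not overlap, against backgrounds of 4.38% of genes with all Mut libraries below and 5.87% with all above the WT libraries. The direction was mostly shared, but these genes moved together from library to library and are not independent observations. In 50 of 56 genes the estimate lay below 0, against 49.9% of all genes tested, and the median log2 fold change (Mut over WT, as a difference on the log2 scale) was -0.19, against 0.00030 for all genes tested. That median moved with single libraries: it was -0.03, with 35 genes lower, without Mut replicate 2, -0.11 without Mut replicate 1, and -0.48, with 54 lower, without Mut replicate 3.

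The libraries of the Mut group stood further apart than the groups did. Mut replicate 3 was the highest of the 6 libraries for 40 of the 56 genes, where it was highest for 16.9% of all genes tested, and Mut replicate 2 was the lowest for 42, against a background of 18.2%. In 31 of the 56 genes Mut replicate 3 lay above all WT libraries while Mut replicates 1 and 2 lay below all of them, an arrangement found in 3.77% of all genes. Reads of the 56 genes made up 0.566%, 0.501% and 0.767% of all counted reads in Mut HSCs, against 0.623%, 0.692% and 0.676% in WT HSCs. Relative to the mean of the 6 libraries on the log2 scale, the median gene was at -0.19, -0.47 and 0.34 in Mut HSCs and at -0.02, 0.20 and 0.15 in WT HSCs. The library with the highest mitotic levels and the library with the lowest were thus both Mut, and the pooled SD of these library medians within groups was 0.30. Within the pair of libraries with Y-linked reads the median log2 CPM difference, Mut minus WT, was -0.21 (44 of 56 genes lower, 1 library a group). Within the other 4 libraries the same difference between group means was -0.25, with 48 genes lower. An edgeR fit of those 4 libraries gave a median log2 fold change of -0.18, with 47 genes lower.

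**Figure D1:**
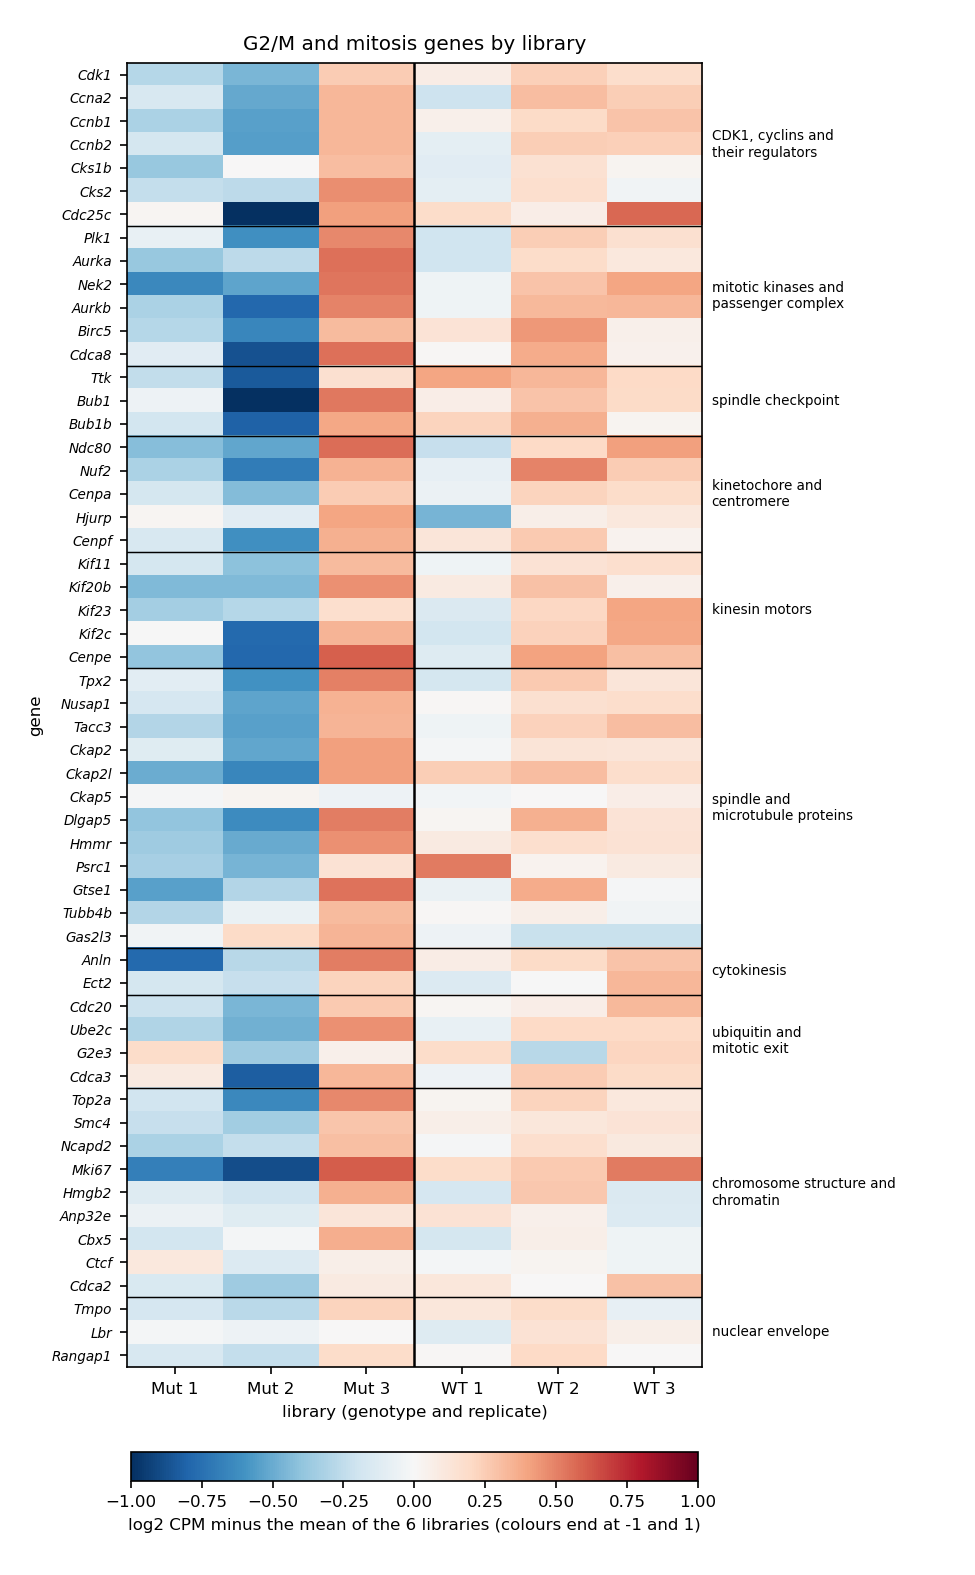
Each row is 1 of the 56 genes, ordered by function, and each column 1 library; colour is log2 CPM (counts scaled to library size) minus the mean of the 6 libraries, with colours ending at -1 and 1. Mut replicate 3 is red and Mut replicate 2 blue in most rows, with the 3 WT libraries between them, while Ckap5, Lbr, Ctcf and Anp32e stay pale in every column.

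The promoters of these genes were examined for the sequence elements known to bind their late regulators. The CHR element, here the letters TTTGAA on either strand, is bound by MuvB complexes, and the CCAAT box is bound by NF-Y; neither run of letters contains the other, on either strand. In RefSeq promoter windows (250 bases before to 50 after a gene start, mouse GRCm38.p6) 49 of the 56 genes were matched, and a gene counted if any of its windows held the element. Of these, 35 (71.4%) held TTTGAA, against 20.2% of the 27025 genes in that table and 14.1% of 10026 other genes tested here. At least 2 CCAAT boxes were found in 29 (59.2%), against 13.3% of genes in the table. Both TTTGAA and at least 2 CCAAT boxes were found in 23 (46.9%), against 2.81%. These could lie in different windows of a gene, as for Tmpo. A match is a run of letters and not evidence of binding. Other forms of the CHR element were not searched for. Stretches of 150 bases from upstream of the gene start are shown for a cyclin-dependent kinase, a cyclin, the checkpoint gene with the lowest estimate, a spindle gene, an exit activator, both proliferation markers and the gene with the highest estimate. The sequences run 5′ to 3′ along the gene's strand, with TTTGAA or CCAAT (or their reverse complements TTCAAA and ATTGG) in capitals.
Cdk1 (chr10:69352939-69353088, minus strand): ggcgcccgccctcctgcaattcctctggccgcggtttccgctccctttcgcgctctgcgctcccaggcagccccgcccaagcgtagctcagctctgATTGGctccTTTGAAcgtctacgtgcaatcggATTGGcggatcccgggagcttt
Ccnb2 (chr9:70421555-70421704, minus strand): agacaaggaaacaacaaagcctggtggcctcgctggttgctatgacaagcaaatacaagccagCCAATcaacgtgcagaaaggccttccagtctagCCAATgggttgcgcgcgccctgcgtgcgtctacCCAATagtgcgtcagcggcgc
Ttk (chr9:83834539-83834688, plus strand): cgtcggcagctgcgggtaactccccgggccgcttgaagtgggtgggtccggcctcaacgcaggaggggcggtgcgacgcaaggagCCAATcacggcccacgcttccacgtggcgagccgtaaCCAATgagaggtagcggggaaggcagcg
Ckap2l (chr2:129297213-129297362, minus strand): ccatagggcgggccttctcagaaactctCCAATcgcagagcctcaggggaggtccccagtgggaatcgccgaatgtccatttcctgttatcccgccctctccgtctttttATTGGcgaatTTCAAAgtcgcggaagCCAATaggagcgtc
Cdc20 (chr4:118437353-118437502, minus strand): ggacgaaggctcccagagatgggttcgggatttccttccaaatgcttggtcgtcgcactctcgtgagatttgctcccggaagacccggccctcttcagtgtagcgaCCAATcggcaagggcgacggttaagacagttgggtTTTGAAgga
Top2a (chr11:99024190-99024339, minus strand): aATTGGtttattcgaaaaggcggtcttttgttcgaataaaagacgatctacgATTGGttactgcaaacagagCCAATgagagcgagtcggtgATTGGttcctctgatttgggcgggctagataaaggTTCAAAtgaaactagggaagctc
Mki67 (chr7:135716380-135716529, minus strand): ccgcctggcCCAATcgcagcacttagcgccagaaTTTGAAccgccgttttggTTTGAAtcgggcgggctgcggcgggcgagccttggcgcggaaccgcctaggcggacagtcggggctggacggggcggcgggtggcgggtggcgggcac
Gas2l3 (chr10:89443968-89444117, minus strand): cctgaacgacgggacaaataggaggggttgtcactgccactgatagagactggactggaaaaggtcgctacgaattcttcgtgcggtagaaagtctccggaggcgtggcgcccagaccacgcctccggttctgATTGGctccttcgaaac
In these stretches Top2a held 4 CCAAT boxes and Ckap2l and Ccnb2 held 3 each, while Mki67 held TTTGAA at 2 places and Gas2l3 held a single CCAAT box. Among the 35 genes with TTTGAA in the full window, Mut replicate 3 was the highest library for 25, and among the 14 without it for 10. The median log2 fold change was -0.17 in the genes with TTTGAA and -0.26 in those without these letters.

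Of the 7 genes for Cdk1, its cyclins and its regulators, 6 had estimates below 0 and 0 passed the test. Mut replicate 3 was the highest library for 6 of them, all but Cdc25c, and Mut replicate 2 the lowest for 6, all but Cks1b. Cdk1, the kinase that drives entry into mitosis, had 27.7, 23.8 and 39.3 FPKM in Mut HSCs, against 35.2, 38.4 and 37.9 FPKM in WT HSCs (log2 fold change -0.30, SE 0.18). Ccnb1, the main mitotic cyclin, had 47.3, 39.2 and 71.9 FPKM in Mut HSCs, against 60.2, 64.7 and 71.3 FPKM in WT HSCs (log2 fold change -0.31, SE 0.21). For both genes Mut replicates 1 and 2 lay below every WT library and Mut replicate 3 above. Ccnb2, the second B-type cyclin, showed the same arrangement, at 56.4, 42.1 and 77.8 FPKM in Mut HSCs, against 58.9, 72.8 and 74.4 FPKM in WT HSCs (log2 fold change -0.22, SE 0.22). Ccna2, the cyclin of S phase and G2, had 47.7, 36.3 and 65.3 FPKM in Mut HSCs, against 45.7, 63.5 and 62.8 FPKM in WT HSCs (log2 fold change -0.20, SE 0.22), so that here WT replicate 1 was also low and lay between Mut replicates 1 and 2. The largest estimate in this group was that of Cdc25c, the phosphatase that activates Cdk1, at 6.44, 2.56 and 8.22 FPKM in Mut HSCs, against 7.15, 6.42 and 9.41 FPKM in WT HSCs (log2 fold change -0.42, SE 0.39). It rests mainly on Mut replicate 2, the lowest of the 6 libraries, and Cdc25c was counted from only 133 reads there. The small CDK-binding proteins were the most abundant members of the group and showed little difference. Cks1b, which also helps degrade the CDK inhibitor p27, had 117, 147 and 183 FPKM in Mut HSCs, against 139, 162 and 153 FPKM in WT HSCs (log2 fold change -0.020, SE 0.17). Cks2 had 113, 108 and 179 FPKM in Mut HSCs, against 123, 144 and 129 FPKM in WT HSCs (log2 fold change 0.013, SE 0.20), and in both genes the Mut values enclosed the WT values. Ccnb1 and Ccnb2 each have a processed copy annotated in the genome, whose reads may be shared with them.

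Of the 6 mitotic kinase and chromosomal passenger genes, all had estimates below 0 and 0 passed the test. Birc5, which encodes survivin, had the lowest estimate of these, at 13.9, 10.4 and 20.5 FPKM in Mut HSCs, against 18.3, 21.9 and 17.4 FPKM in WT HSCs (log2 fold change -0.37, SE 0.24). Mut replicates 1 and 2 were below every WT library, and WT replicate 2 was the highest of all. Its partner Aurkb, the catalytic subunit of the passenger complex, had 32.5, 22.8 and 55.6 FPKM in Mut HSCs, against 38.9, 48.7 and 50.6 FPKM in WT HSCs (log2 fold change -0.32, SE 0.30), a 2.44-fold span between Mut replicates 3 and 2 in FPKM. For Aurkb, Mut replicates 1 and 2 were below and Mut replicate 3 above all WT libraries. Estimates were -0.19 (SE 0.31) for the third passenger gene, Cdca8 (borealin), and -0.33 (SE 0.31) for Nek2, a centrosome kinase gene. Plk1, a kinase of mitotic entry and spindle assembly, had 20.9, 13.9 and 29.8 FPKM in Mut HSCs, against 19.0, 25.2 and 24.4 FPKM in WT HSCs (log2 fold change -0.084, SE 0.26). Aurka, the spindle pole kinase, had 19.2, 20.1 and 35.4 FPKM in Mut HSCs, against 21.4, 27.3 and 26.6 FPKM in WT HSCs (log2 fold change -0.0094, SE 0.25). For Plk1 and Aurka the 3 Mut libraries spread on both sides of WT and the group means were close.

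The spindle checkpoint held the gene with the lowest estimate of all 56. Ttk (chr9:83834689-83872389, mm10), which encodes the kinase MPS1 that starts the checkpoint signal at unattached kinetochores, had 9.96, 6.41 and 12.9 FPKM in Mut HSCs, against 15.4, 14.4 and 13.5 FPKM in WT HSCs. Every Mut library was below every WT library, Mut replicate 3 by the least, and the means were 9.74 ± 3.23 FPKM in Mut HSCs and 14.4 ± 0.969 FPKM in WT HSCs (SD, n = 3 each). Its log2 fold change was -0.57 (SE 0.23), with an unadjusted p of 0.0422 and an adjusted p of 0.999 in edgeR; an exact two-sided permutation test of 3 against 3 values cannot go below p = 0.1. Without Mut replicate 2 the estimate was -0.34 and without Mut replicate 3 it was -0.83, where Mut replicates 1 and 2 alone were set against WT. Bub1, the kinase that recruits other checkpoint proteins, had 11.7, 5.83 and 17.1 FPKM in Mut HSCs, against 12.6, 14.2 and 13.8 FPKM in WT HSCs (log2 fold change -0.23, SE 0.33). Bub1b (BubR1), a subunit of the complex that inhibits Cdc20, had 31.0, 19.6 and 45.0 FPKM in Mut HSCs, against 40.7, 43.5 and 35.7 FPKM in WT HSCs (log2 fold change -0.33, SE 0.27). In both Bub genes Mut replicate 2 was the lowest and Mut replicate 3 the highest library, 2.93-fold apart for Bub1. The median of the 3 checkpoint genes in Mut replicate 2 was -0.84 from the mean of the 6 libraries, the lowest of any functional group in any library.

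**Figure D2:**
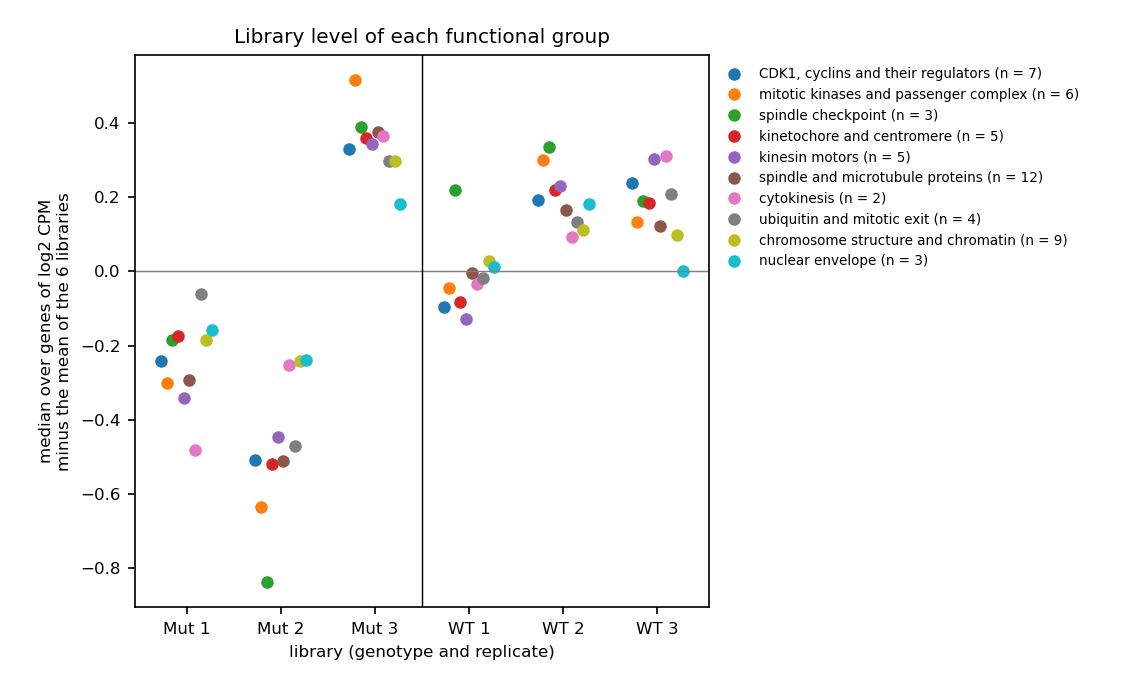
Each point is the median, over the genes of 1 functional group, of log2 CPM minus the mean of the 6 libraries, with the groups side by side within each library. All 10 groups are above 0 in Mut replicate 3 and below 0 in Mut replicates 1 and 2; spindle checkpoint genes are lowest in Mut replicate 2 at -0.84, and cytokinesis genes are lowest in Mut replicate 1 at -0.48.

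Kinetochore and centromere genes had 4 of 5 estimates below 0. Ndc80 and Nuf2 encode the paired subunits of the complex that grips microtubules. Ndc80 had 13.3, 12.1 and 25.7 FPKM in Mut HSCs, against 15.1, 19.8 and 23.7 FPKM in WT HSCs (log2 fold change -0.20, SE 0.30), and Nuf2 had 15.7, 11.6 and 24.2 FPKM in Mut HSCs, against 18.2, 26.5 and 23.1 FPKM in WT HSCs (log2 fold change -0.40, SE 0.27). Mut replicates 1 and 2 were the lowest libraries for both genes, while the highest was Mut replicate 3 for Ndc80 and WT replicate 2 for Nuf2. Cenpa, the histone H3 variant that marks centromeres, had 29.0, 23.5 and 38.0 FPKM in Mut HSCs, against 31.1, 36.6 and 36.8 FPKM in WT HSCs (log2 fold change -0.21, SE 0.19), and the outer kinetochore gene Cenpf had an estimate of -0.23 (SE 0.23). In Cenpa and Cenpf alike Mut replicates 1 and 2 were below all WT libraries and Mut replicate 3 above them. Hjurp, the chaperone that loads Cenpa, had an estimate above 0, with 53.8, 47.7 and 68.2 FPKM in Mut HSCs, against 38.0, 53.3 and 56.8 FPKM in WT HSCs (log2 fold change 0.20, SE 0.18). The estimate for Hjurp was 0.028 without Mut replicate 3 and 0.037 without WT replicate 1. The groups overlapped for Hjurp, and its lowest library was WT replicate 1, not a Mut library. Hjurp (chr1:88262471-88277633, mm10) shares chromosome 1 with Ramp1, and its start lies at -2.92 Mb from that of Ramp1. The other chromosome 1 members, Nuf2, Lbr, Cenpf and Nek2, start 78.3 to 101 Mb beyond Ramp1.

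All 5 kinesin genes had estimates below 0, between -0.30 and -0.15, and 0 passed the test. Kif11 (Eg5), the motor that pushes spindle poles apart, had 21.8, 17.9 and 29.8 FPKM in Mut HSCs, against 23.6, 26.1 and 27.3 FPKM in WT HSCs (log2 fold change -0.15, SE 0.18). Kif23, the motor of centralspindlin that builds the midzone for cytokinesis, had 15.2, 15.3 and 21.0 FPKM in Mut HSCs, against 17.2, 21.4 and 25.1 FPKM in WT HSCs (log2 fold change -0.30, SE 0.19). The kinetochore motor gene Cenpe had 2.66, 1.95 and 5.15 FPKM in Mut HSCs, against 3.15, 4.45 and 4.27 FPKM in WT HSCs (log2 fold change -0.28, SE 0.34). Cenpe spread the most of the 5 in Mut libraries, 2.64-fold between replicates 3 and 2, and Kif23 the least, 1.37-fold. The lowest library was Mut replicate 1 for Kif23 and Mut replicate 2 for the other kinesin genes, while Kif11 and Cenpe were highest in Mut replicate 3 and Kif23 in WT replicate 3. The microtubule depolymerase gene Kif2c and the cytokinesis motor gene Kif20b had estimates of -0.24 (SE 0.28) and -0.23 (SE 0.25).

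Among 12 genes of spindle and microtubule proteins, 11 had estimates below 0 and Gas2l3 was the exception. Gas2l3 (chr10:89408823-89443967, mm10), whose human protein links actin and microtubules and takes part in cytokinesis, had 7.57, 8.60 and 9.58 FPKM in Mut HSCs, against 7.45, 6.41 and 6.63 FPKM in WT HSCs. All Mut libraries were above all WT libraries, with means of 8.59 ± 1.01 FPKM in Mut HSCs and 6.83 ± 0.545 FPKM in WT HSCs (SD, n = 3 each) and a log2 fold change of 0.33 (SE 0.13; unadjusted p = 0.0346, edgeR adjusted p = 0.999). Psrc1, a small spindle protein gene, had the lowest estimate, at 5.30, 4.68 and 7.19 FPKM in Mut HSCs, against 9.47, 6.60 and 7.05 FPKM in WT HSCs (log2 fold change -0.43, SE 0.25). Here WT replicate 1 was highest, and Mut replicate 3 was above the other 2 WT libraries. Tpx2, which activates Aurora A and nucleates spindle microtubules, had 20.0, 13.7 and 29.7 FPKM in Mut HSCs, against 18.8, 24.8 and 23.1 FPKM in WT HSCs (log2 fold change -0.075, SE 0.26), again with Mut libraries on both sides of WT. The spindle genes Ckap2l, Tacc3, Dlgap5, Hmmr and Nusap1 had estimates of -0.41, -0.29, -0.26, -0.21 and -0.19, and those of Gtse1 and Ckap2 were -0.13 and -0.11. The abundant tubulin gene Tubb4b was at -0.0017 and the microtubule polymerase gene Ckap5 at -0.026. Ckap5 was between 24.3 and 26.8 FPKM in all 6 libraries, without the excess in Mut replicate 3 or the deficit in Mut replicate 2 seen in most other genes. Tubb4b has 2 processed copies annotated, with which it may share reads.

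Both cytokinesis genes had estimates below 0, and 0 passed the test. Anln (anillin), the scaffold of the contractile ring, had 3.92, 5.41 and 9.37 FPKM in Mut HSCs, against 7.03, 7.41 and 8.17 FPKM in WT HSCs (log2 fold change -0.27, SE 0.29). Ect2, the exchange factor that activates RhoA at the cleavage site, had 12.7, 11.8 and 16.3 FPKM in Mut HSCs, against 12.9, 13.8 and 18.0 FPKM in WT HSCs (log2 fold change -0.13, SE 0.17). Anln in Mut replicate 1 was below all other libraries, and the Ect2 values of Mut replicates 1 and 2 were just below the lowest WT value.

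The ubiquitin and mitotic exit genes had 4 of 4 estimates below 0. Cdc20, the activator that turns on the anaphase-promoting complex, had 55.1, 45.1 and 74.4 FPKM in Mut HSCs, against 64.0, 64.4 and 79.5 FPKM in WT HSCs (log2 fold change -0.25, SE 0.19). Ube2c, the ubiquitin-conjugating enzyme of that complex, had 28.3, 24.1 and 46.6 FPKM in Mut HSCs, against 32.7, 38.5 and 39.7 FPKM in WT HSCs (log2 fold change -0.16, SE 0.24). For both genes Mut replicates 1 and 2 were below every WT library, whereas Mut replicate 3 was above all WT libraries for Ube2c and below WT replicate 3 for Cdc20. Cdca3, an adaptor for degradation of the Cdk1 inhibitor Wee1, was at -0.19 (SE 0.27), and G2e3, a ubiquitin ligase named for its G2/M expression, at -0.079 (SE 0.18).

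Among 9 genes of chromosome structure and chromatin, 6 had estimates below 0, and Mki67 and Top2a spread most between Mut libraries. Mki67, the surface coat of mitotic chromosomes and the usual marker of cycling cells, had 5.21, 4.39 and 12.4 FPKM in Mut HSCs, against 9.45, 9.65 and 12.0 FPKM in WT HSCs (log2 fold change -0.49, SE 0.36). Mut replicates 1 and 2 were below every WT library and Mut replicate 3 slightly above the highest of them, a 2.83-fold span within the Mut group. Without Mut replicate 3 its log2 fold change was -1.12, with an adjusted p of 0.249 in edgeR, the smallest of any of the 56 genes with any library left out. Top2a, the topoisomerase that untangles sister chromosomes, had 48.6, 34.3 and 75.5 FPKM in Mut HSCs, against 56.1, 62.4 and 59.2 FPKM in WT HSCs (log2 fold change -0.17, SE 0.25). The WT libraries of Top2a lay close together, with Mut replicates 1 and 2 below and Mut replicate 3 above them. The condensin genes Smc4 and Ncapd2 had estimates of -0.18 and -0.15, and Cdca2 (Repo-Man), which targets a phosphatase to chromatin, -0.27. Hmgb2, an abundant DNA-bending protein gene, had 128, 119 and 175 FPKM in Mut HSCs, against 124, 163 and 126 FPKM in WT HSCs (log2 fold change 0.032, SE 0.18). Cbx5, which encodes heterochromatin protein HP1 alpha, had 12.9, 14.1 and 18.4 FPKM in Mut HSCs, against 12.9, 14.7 and 14.1 FPKM in WT HSCs (log2 fold change 0.12, SE 0.15). For Hmgb2 and Cbx5, Mut replicate 3 was again the highest library, but Mut replicates 1 and 2 were near the WT values. The histone chaperone gene Anp32e and the insulator gene Ctcf, which act outside mitosis too, had estimates of -0.039 and 0.020.

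The 3 nuclear envelope genes had estimates between -0.13 and -0.05. Rangap1, the GTPase activator of Ran, had 46.5, 42.6 and 57.2 FPKM in Mut HSCs, against 51.7, 57.3 and 51.5 FPKM in WT HSCs (log2 fold change -0.13, SE 0.13). The lamina-associated protein gene Tmpo had an estimate of -0.13 (SE 0.14) and the lamin B receptor gene Lbr one of -0.053 (SE 0.092). Mut replicates 1 and 2 were the lowest libraries for Rangap1, with Mut replicate 3 within the WT range.

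**Figure D3:**
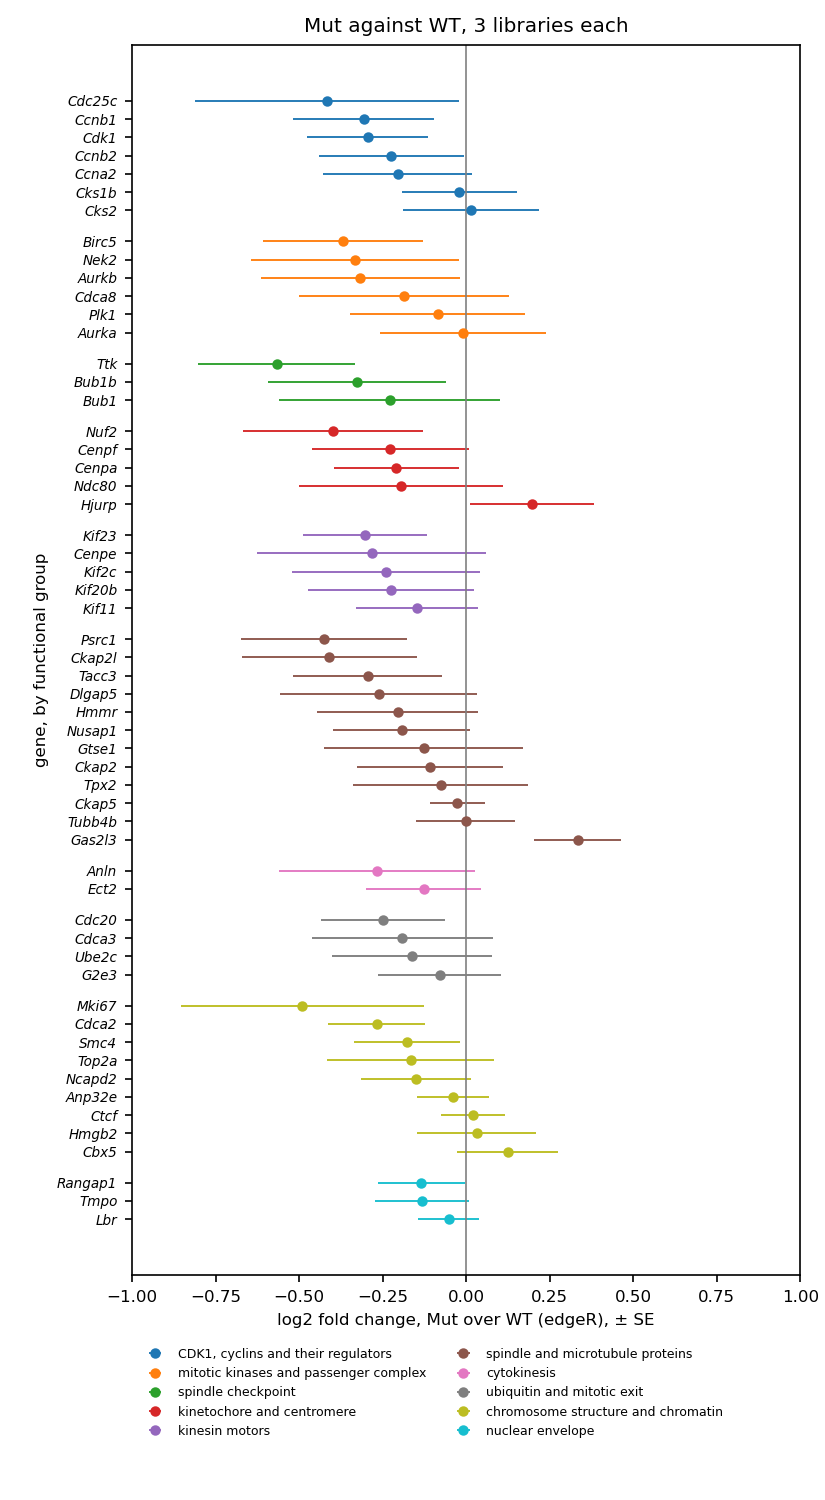
Points are edgeR log2 fold changes, Mut over WT, with bars of 1 SE, for the 56 genes by functional group (3 libraries per genotype). Of the 56 points 50 lie below 0, from -0.57 for Ttk, and 6 above, up to 0.33 for Gas2l3; no gene passed the adjusted test.

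The spread within the Mut group was larger than that within WT for 52 of the 56 genes, against 58.8% of all genes tested. On the log2 scale the median SD over 3 libraries was 0.45 in Mut and 0.15 in WT HSCs for these genes, and 0.23 in Mut and 0.19 in WT HSCs for all genes tested. Between Mut replicates 3 and 2 the median gene differed 1.81-fold, and between the same libraries all genes tested had a median ratio of 0.989. Cdc25c, Mki67 and Bub1 had the largest SDs in Mut HSCs, at 0.87, 0.81 and 0.78. At the other end, Lbr and Ckap5 had SDs of 0.027 and 0.037 in Mut HSCs, below their SDs of 0.14 and 0.047 in WT HSCs. Hjurp and Anp32e were the other 2 genes with a smaller SD in Mut. No label records an order, batch or date by which Mut replicate 3 differed from Mut replicates 1 and 2.

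**Figure D4:**
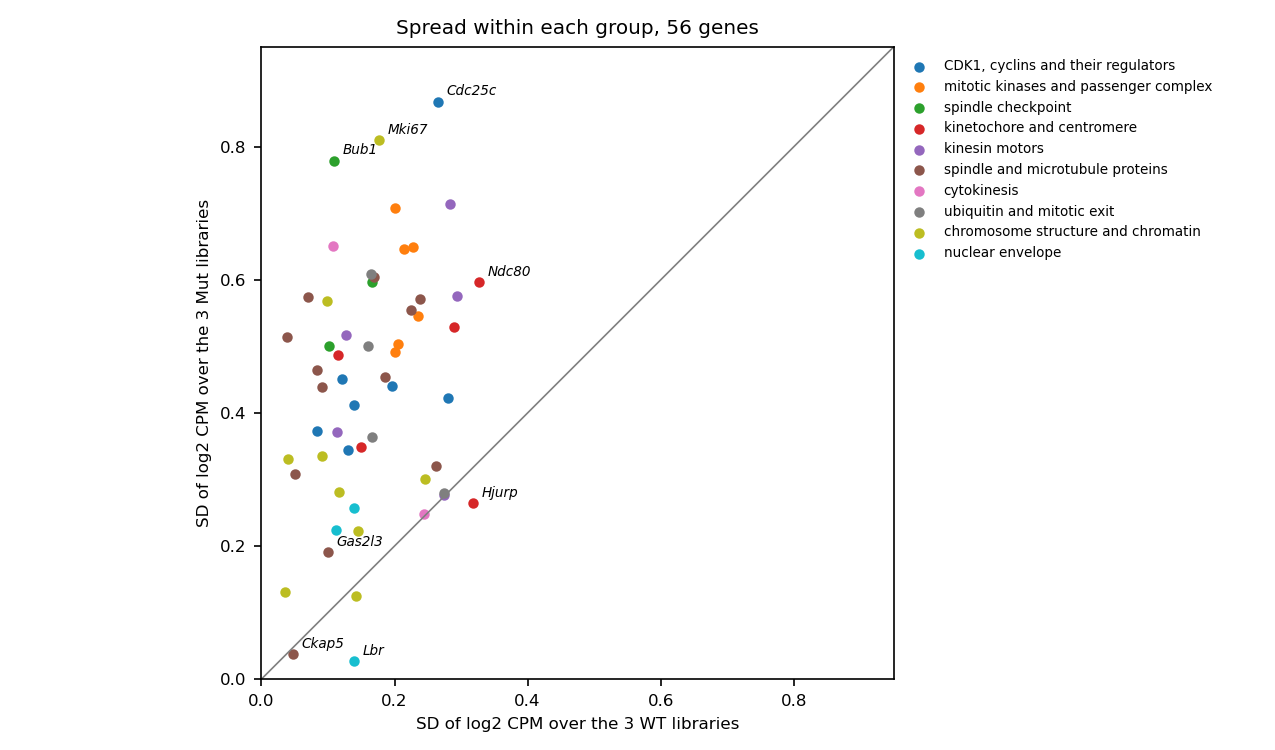
Each point is a gene, with the SD of log2 CPM over the 3 Mut libraries on the y axis and over the 3 WT libraries on the x axis; the grey line marks equal SDs. Of the 56 genes 52 lie above the line, and Cdc25c, Mki67 and Bub1 reach the highest SDs in Mut.

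Other mitotic genes outside the 56 were examined in the same fit. In 4 further lists of kinetochore, spindle and cytokinesis, condensin and cohesin, and entry and exit genes, 0 of 93 tested genes passed in either direction, 76 had lower estimates, and the median log2 fold change was -0.15. At an unadjusted p under 0.05 there were 2 of 93 lower genes (background 1.7%) and 0 higher (background 2.28%), and DESeq2 and limma-voom also called 0. With 1 library left out, the medians of the 4 lists ranged from -0.50 (kinesin and spindle list, without Mut replicate 3) to -0.013 (condensin list, without Mut replicate 1). Groups did not overlap for 2 lower genes and 1 higher gene of the 93, against backgrounds of 4.38% and 5.87%. Mut replicate 3 was the highest library for 54 of the 93 and Mut replicate 2 the lowest for 50. Of the kinetochore and checkpoint list, 26 of 35 had lower estimates, with the lowest estimate that of Cenpn, a protein that binds the CENP-A nucleosome (log2 fold change -0.48, SE 0.32). Dsn1, a subunit of the kinetochore's Mis12 complex, had 15.2, 11.5 and 18.4 FPKM in Mut HSCs, against 17.8, 17.6 and 20.5 FPKM in WT HSCs (log2 fold change -0.31, SE 0.18), lowest in Mut replicates 1 and 2. Of kinesin, spindle and cytokinesis genes, 25 of 26 had lower estimates, among them Arhgap11a, a RhoA regulator, with 14.1, 9.74 and 15.1 FPKM in Mut HSCs, against 17.0, 16.1 and 17.6 FPKM in WT HSCs (log2 fold change -0.38, SE 0.16) and groups that did not overlap. The motor gene Kif20a was at -0.42 (SE 0.29) and Kif22 at -0.36 (SE 0.21). Condensin and cohesin genes had 11 of 13 lower, with Smc2, a core condensin subunit gene, at 16.2, 15.7 and 24.9 FPKM in Mut HSCs, against 21.2, 23.5 and 22.3 FPKM in WT HSCs (log2 fold change -0.23, SE 0.18). Among entry and exit regulators 14 of 19 estimates were lower. Fzr1 (Cdh1), which activates the anaphase-promoting complex after anaphase and in G1, had 46.5, 39.1 and 43.3 FPKM in Mut HSCs, against 49.2, 51.7 and 51.8 FPKM in WT HSCs (log2 fold change -0.25, SE 0.093), without overlap between groups. Fbxo5 (Emi1), an inhibitor of that complex, was at -0.43 (SE 0.24). The complex's subunit gene Anapc4 was at 0.14 (SE 0.083), with every Mut library above every WT library.

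Regulators of mitotic transcription had 17 of 20 lower estimates and a median of -0.19, with 0 passing the test in edgeR, DESeq2 or limma-voom and 2 of 20 lower at an unadjusted p under 0.05 (background 1.7%). With 1 library left out the median ranged from -0.41 to -0.05. Foxm1, which activates late cell cycle promoters, had 9.64, 5.45 and 14.7 FPKM in Mut HSCs, against 11.2, 11.2 and 12.8 FPKM in WT HSCs (log2 fold change -0.24, SE 0.31), the arrangement of Ccnb1 and Mki67. Mybl2 (B-Myb) had 4.24, 6.32 and 11.2 FPKM in Mut HSCs, against 7.30, 12.6 and 9.17 FPKM in WT HSCs (log2 fold change -0.41, SE 0.36), and here Mut replicate 1 was the lowest library. The DREAM pocket protein gene Rbl2 (p130), typical of resting cells, was arranged the other way round, at 49.2, 45.0 and 30.4 FPKM in Mut HSCs, against 36.2, 35.8 and 37.5 FPKM in WT HSCs (log2 fold change 0.18, SE 0.16). Its lowest library was Mut replicate 3, and Mut replicates 1 and 2 were above all WT libraries. Rbl1 (p107) had 17.9, 14.4 and 18.5 FPKM in Mut HSCs, against 23.1, 21.2 and 18.4 FPKM in WT HSCs (log2 fold change -0.30, SE 0.14), and E2f4, the E2F partner of DREAM, 50.9, 46.3 and 54.2 FPKM in Mut HSCs, against 55.7, 51.7 and 51.9 FPKM in WT HSCs (log2 fold change -0.072, SE 0.099). For both genes the groups overlapped. Lin54, the DNA-binding subunit gene of MuvB, was at -0.025 (SE 0.11). Rb1, the retinoblastoma gene, had 5.89, 4.16 and 3.11 FPKM in Mut HSCs, against 9.68, 7.60 and 4.80 FPKM in WT HSCs (log2 fold change -0.75, SE 0.30), with all but Mut replicate 1 below every WT library. The NF-Y subunit gene Nfyb had 10.3, 10.8 and 14.1 FPKM in Mut HSCs, against 17.7, 17.9 and 13.5 FPKM in WT HSCs (log2 fold change -0.48, SE 0.17), with overlap only between Mut replicate 3 and WT replicate 3, and Nfya was at -0.57 (SE 0.25).

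Genes of DNA replication, the preceding phase, were set beside the mitotic genes. Of 30 S phase genes 28 had lower estimates, with a median of -0.16 and 0 past the test in edgeR, DESeq2 or limma-voom (0 at an unadjusted edgeR p under 0.05). The count was 15 without Mut replicate 1, with a median of 0.0029, and 17 without Mut replicate 2, and the median was -0.47 without Mut replicate 3. Mut replicate 3 was the highest library for 23 of 30, but the lowest was Mut replicate 1 for 16 and Mut replicate 2 for 12, where for the 56 mitotic genes it was Mut replicate 1 for 9 (background 19.6%) and Mut replicate 2 for 42. Medians relative to the mean of the 6 libraries were -0.40, -0.34 and 0.41 in Mut HSCs and 0.09, 0.25 and -0.03 in WT HSCs. Mcm6, a subunit of the replicative helicase, had 132, 134 and 209 FPKM in Mut HSCs, against 194, 223 and 173 FPKM in WT HSCs (log2 fold change -0.31, SE 0.20), and its Mut replicates 1 and 2 were below every WT library. The difference between the lists in their lowest library was not tested.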

How the data were processed

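The deposited table holds raw read counts per gene, with FPKM, log2 fold changes and p-values made by the authors; per the submitters' processing notes, CASAVA, STAR, HTSeq 0.6.1, DESeq2 and build mm10 were used, with no role or order given. The authors' size-factor-normalized values in the same table (a signal unit) were not used. A second deposited table of the authors' FPKM was used for marker genes. In the authors' deposited table the log2 fold change is below 0 for 50 of the 56 genes, and their smallest adjusted p-value is 0.782. Those values come from the same counts and are not independent support.

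The counts (22796771 to 26734561 per library) were tested here with edgeR 4.0.16 in R 4.3.3 (TMM, filterByExpr with a minimum count of 10, quasi-likelihood F test, Mut minus WT). This left 14443 genes, all 56 members among them, with 133 to 15959 reads per library and mean levels of 2.80 to 327 FPKM. Each SE was derived from the size of the estimate and the root of its F value. Library comparisons used log2 CPM (prior count 2). Alternatives were RLE scaling, no filter, DESeq2 1.42.0, limma-voom 3.58.1, each library left out, the replicate number as a block, and Y-linked reads (over 100 per library) as a term or a ground for leaving libraries out.

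The members and lists were chosen with earlier results of these data known. Values in every library are given for a set list of core genes of each function, for the member with the largest difference of each function, for members with an unadjusted p under 0.05 or non-overlapping groups and for members with a log2 fold change above 0.1. Genes named outside the members, some with their estimate alone, are among the 4 with the smallest unadjusted p of their list at 1 FPKM or more, or among 6 set regulators (Foxm1, Mybl2, E2f4, Rbl1, Rbl2 and Lin54).

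The sources used here do not give the strand setting of the counting. Exons of 18 members overlap another annotated gene (GENCODE M21), on the opposite strand for 15 of them, including Ccna2, Cdc20, Cdc25c, Plk1, Tacc3 and Ube2c, so some reads may belong to neighbours. Promoters are RefSeq's, build GRCm38.p6; Aurkb, Ccna2, Cdc25c, Cdca2, Dlgap5, Smc4 and Tpx2 were unmatched. Printed stretches end before both the RefSeq and the deposited gene start.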

Additional observations from a re-analysis of the deposited data

How the results depend on the processing

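Under all 13 alternatives run on the edgeR comparison, 0 of the 56 genes passed the adjusted threshold. The number with lower values was 50 or 51 under RLE scaling, no filter, DESeq2, limma-voom, the replicate block and the Y-linked term, and 47 without both libraries with Y-linked reads. With 1 library left out it ranged from 35 to 54, and the median log2 fold change from -0.48 to -0.03. Replicate numbers were not taken to pair the libraries, although Y-linked reads and Elane matched by number. Correlations of same-numbered deviations over all genes were 0.14, 0.0018 and -0.09, not all over 0.1. Across numbers the correlation was 0.10 for Mut replicate 2 with WT replicate 3 and 0.15 for Mut replicate 3 with WT replicate 2. The remaining correlations were below 0, and no block on those cross-numbered pairs was fitted. With the replicate block the median was -0.25, and 0 of the 56 genes were called. Mut replicate 3 was highest for 40 genes under RLE scaling and 39 by the deposited FPKM, and Mut replicate 2 lowest for 42 and 43 (an alternative chosen after seeing the data). Over all genes, calls numbered 44 in DESeq2 and 6 without Mut replicate 2, against 3. In the S phase list 16 of 30 genes had lower values without the Y-linked libraries, and with 1 library left out 15 to 29, with medians from -0.47 to 0.0029.

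For 33 of the 56 genes no alternative turned the sign. Without both Y-linked libraries the estimate was 0.077 for Cks1b, 0.054 for Aurka, 0.13 for Tubb4b, 0.049 for Anp32e, -0.033 for Ctcf and 0.025 for Lin54. Cks2 was at -0.023 in limma-voom and -0.024 with the replicate block. Leaving out each library in turn gave -0.21 to 0.14 for Cks1b, -0.27 to 0.14 for Cks2, -0.41 to 0.15 for Plk1, -0.37 to 0.16 for Aurka, -0.60 to 0.11 for Cdca8, -0.65 to 0.092 for Bub1 and -0.63 to 0.0027 for Ndc80. Of the motor and spindle genes the ranges were -0.39 to 0.0070 for Kif11, -0.51 to 0.022 for Kif2c, -0.42 to 0.16 for Tpx2, -0.39 to 0.092 for Ckap2, -0.53 to 0.084 for Gtse1 and -0.19 to 0.13 for Tubb4b. For cytokinesis and exit genes they were -0.29 to 0.020 for Ect2, -0.51 to 0.023 for Ube2c, -0.21 to 0.067 for G2e3 and -0.44 to 0.085 for Cdca3. For chromatin, envelope and regulator genes they were -0.53 to 0.067 for Top2a, -0.17 to 0.20 for Hmgb2, -0.12 to 0.024 for Anp32e, -0.054 to 0.24 for Cbx5, -0.027 to 0.094 for Ctcf, -0.13 to 0.014 for Lbr, -0.65 to 0.059 for Foxm1 and -0.086 to 0.018 for Lin54. The causes of these sign changes were not tested. Precision is limited by having 3 libraries a group, with 133 to 15959 reads a gene and library among the 56.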

Other observations

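Of the 12 HSC markers, 7 were lowest among the Mut libraries in replicate 3, the library with the highest mitotic levels. Another 4 were lowest in Mut replicate 2, the library with the lowest mitotic levels. Among the WT libraries 8 were lowest in replicate 2 and 3 in replicate 3. For these counts within a group no share over all genes was computed. Over all 6 libraries Mut replicate 3 was lowest for 3 of the 12 (background 17.4%) and WT replicate 2 for 6 (background 14.3%). The summed level was 1645, 1455 and 1316 FPKM in Mut HSCs and 1548, 1300 and 1401 FPKM in WT HSCs. The genes named next were chosen after their values were seen. Kit, the stem cell factor receptor gene, was lowest in Mut replicate 3, at 460.5, 385 and 260.0 FPKM in Mut HSCs, against 461, 323 and 377 FPKM in WT HSCs. Hlf, a transcription factor gene of long-term HSCs, had 75.7, 71.9 and 45.8 FPKM in Mut HSCs, against 72.4, 49.3 and 80.0 FPKM in WT HSCs. Mecom, which encodes another such factor, had 51.3, 44.7 and 34.9 FPKM in Mut HSCs, against 44.9, 30.1 and 46.8 FPKM in WT HSCs. For Hlf and Mecom the low libraries were Mut replicate 3 and WT replicate 2, the libraries with the highest median of mitotic genes in their groups. In WT these medians were close, at 0.20 in replicate 2 and 0.15 in replicate 3. Of the 56 mitotic genes, 8 were highest of all 6 libraries in WT replicate 3 and 4 in WT replicate 2. Ly6a (Sca-1) had its highest value in Mut replicate 3, at 262, 184 and 319 FPKM in Mut HSCs, against 223, 258 and 146 FPKM in WT HSCs, and Slamf1, Tek, Ctnnal1 and Hoxb5 were also not lowest there among the Mut libraries.

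The next shares are of genes with Mut replicate 3 above and Mut replicates 1 and 2 below all WT libraries. Among 255 other tested genes with both TTTGAA and at least 2 CCAAT boxes, not always in the same window, the share was 7.45% (19 genes). It was 60.9% (14 of 23) for such genes among the 56, and 3.46% for 5054 other genes with neither TTTGAA nor CCAAT. The other genes were not cleared of the other mitosis and S phase lists, where 35 of 93 and 20 of 30 genes were so arranged. Within the 56, the share was 57.1% for the 35 genes with TTTGAA and 57.1% for the 14 without it. Genes were grouped by promoter letters after the library pattern was known, and no test was made.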
